A study of Mus musculus with 3 samples.

Results

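The Gimap genes encode GTPases of the immunity-associated protein family. All 8 listed members were on the array, 8 of 31896 gene names. They were found by gene name among the non-control spots, and every probe of each gene was taken, which gave 10 of 39429 probes. The family was chosen by the tumour over pool ratios of these same arrays, which were known when it was proposed. Those ratios are therefore given below as a description, with no test of the family, and they support nothing further.

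Gimap proteins carry a GTP-binding domain related to that of septins, and most are anchored in or held near intracellular membranes. They are best known from lymphocytes. Loss of Gimap5 in rats and mice leads to a shortage of T cells, and loss of Gimap1 impairs the survival of mature T and B cells. The genes lie side by side in a cluster on mouse chromosome 6. Some members are also found in endothelial cells.

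The tumours were 3 primary gastric cancers of the diffuse type, taken at 12 months of age from mice of genotype Atp4b-Cre+;Cdh1loxP/loxP;Trp53loxP/loxP. The comparison sample was 1 pool of 5 normal gastric mucosae from 12-month-old mice of genotype Atp4b-Cre-;Cdh1loxP/loxP;Trp53loxP/loxP, so both groups carried the loxP-flanked alleles and differed in the Cre transgene, which the promoter of the parietal cell gene Atp4b drives. Each tumour was labelled with Cy5 (red) and hybridised with the pool in Cy3 (green) on its own 2-colour Agilent array. Before RNA extraction, the normal mucosae were freed of stroma by mechanical means in 30 mM EDTA. The labels give no such step for the tumours. The question was how the tumours differed from normal gastric mucosa. Because the pool is 1 sample, the spread among normal mice is unknown, and because the tumours were always in red, any dye effect stays in the ratios.

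The arrays held 43020 gene spots each, of which 52.5% to 54.2% were well above background in green and 64.0% to 66.8% in red, and no spot was saturated. The targeted gene Cdh1 had a log2 ratio of -4.24 ± 0.85 (SD, n = 3) and Trp53 one of -0.21 ± 0.15 (SD, n = 3). Of 12 genes of gastric epithelium, 12 were called lower, against 9.68% of all genes tested, with a median log2 ratio of -5.47. All 12 were well above background in the pool on every array. Of 15 B cell genes, 13 were well above background in red on all 3 arrays and 6 in green. The corresponding counts were 15 and 7 of 22 T cell genes, and 5 and 2 of 10 NK cell genes. RNA of lymphocytes was thus measured in the tumours, whereas 8 of the 15 B cell genes and 11 of the 22 T cell genes were not well above background in the pool on any array.

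The probes are shown in chromosome order because the Gimap4 probes gave different ratios, described below. Each probe is 60 bases long and the first 30 bases are printed, 5′ to 3′ in the sense of the transcript. The number after each name is the base of the transcript at which the file places the probe.
Gimap8, base 3554: gtcttggactgcctaaacctttgtatttgt
Gimap9, base 518: ggaggcagccctgaagtacatgatcatctt
Gimap4, base 500: attcatgattctcttgctcaccaggaagga
Gimap4, base 1060: gactagaccttatttctattttctgcattt
Gimap4, base 1565: agatctcacaagtcaaataatccaggttga
Gimap6, base 1468: aacaagtcttgcaacagataggcaggacac
Gimap7, base 904: accttcgtgaggaagcagagaagaacatat
Gimap1, base 1119: gctcagagctttaatgattcacagtgcagt
Gimap5, base 1244: attaatttcactctcatttgattcccatgg
Gimap3, base 2085: caatgcgtgctttaaaactcggcgtttcag
No probe shared a run of more than 9 bases with another of these probes. Their GC content ran from 35.0% for Gimap8 and Gimap5 to 45.0% for Gimap9 and Gimap6. In mm9, the build of the files, the outermost probes were those of Gimap8 at chr6:48610775-48610834 and Gimap3 at chr6:48714463-48714522, 103.7 kb apart. The Gimap6 and Gimap3 probes lie on the minus strand and the other 8 on the plus strand. Exons and UTRs were not assigned to the probes here.

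Of the 8 genes, 7 passed the filter on dim probes, which asks for a signal well above background in the same channel on each of the 3 arrays, and Gimap7 did not. With each gene at its brightest kept probe, 5 of the 7 were called higher (adjusted p under 0.05 and at least 2-fold in the limma fit over all genes) and 0 lower. Over all 19434 genes tested, 19% were called, 9.33% higher and 9.68% lower, and 49.1% of all calls were in that direction, or 93.3% when arrays were centred on their median in place of loess. As the family was proposed from this contrast, nothing is read from its count. The median log2 ratio of the 7 genes was 1.51, against 0.05 over all genes. In tissue RNA, more cells of a type and more RNA per cell cannot be told apart, and the removal of stroma from the pool cannot be told apart from a rise in the tumours.

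Gimap6, a protein linked to autophagy in lymphocytes, had the largest mean ratio of the family. Its normalised log2 signals were 10.22, 11.07 and 9.56 in tumours 1, 2 and 3, and 8.68, 8.79 and 8.44 in the pool on the same arrays. All tumour values were above all pool values, with tumour 2 the highest. The log2 ratios were 1.54, 2.28 and 1.12, a mean of 1.65 ± 0.59 (SD, n = 3), or 3.13-fold.

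Gimap8, the largest family member, with repeated GTPase domains in its sequence, had log2 signals of 8.80, 9.88 and 8.47 in the tumours and 7.49, 7.52 and 7.32 in the pool. The groups did not overlap, and tumour 2 was again the highest. Its log2 ratios of 1.31, 2.36 and 1.16 gave a mean of 1.61 ± 0.65 (SD, n = 3), or 3.05-fold.

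Gimap1, needed for the survival of mature lymphocytes, had log2 signals of 8.08, 9.10 and 7.86 in the tumours and 6.73, 6.87 and 6.80 in the pool. Tumours 1 and 3 lay close together and tumour 2 stood above them. The log2 ratios were 1.34, 2.23 and 1.06, a mean of 1.54 ± 0.61 (SD, n = 3), or 2.91-fold.

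Gimap3 is a close relative of Gimap5. Its log2 signals were 7.95, 9.57 and 7.97 in the tumours and 6.95, 7.80 and 7.01 in the pool. The groups did not overlap, but array 2 had the highest value in both channels, and its pool value lay just under the tumour values of the other arrays. The pool was the same RNA on every array, yet its SD of 0.48 at this probe was larger than at 99.6% of the 19186 probes well above background in both channels, whose median was 0.07. What raised the pool signal on array 2 was not tested. The log2 ratios were 1.00, 1.77 and 0.96, a mean of 1.24 ± 0.45 (SD, n = 3), and 0.98 without replicate 2, where Gimap3 was below the 2-fold limit and not called.

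Gimap5, whose loss leads to a shortage of T cells, was not well above background in the pool on any array. Its log2 signals were 7.34, 7.77 and 7.03 in the tumours and 6.54, 6.62 and 6.54 in the pool, so the groups did not overlap. The mean log2 ratio was 0.81 ± 0.33 (SD, n = 3), under the 2-fold limit, and tumour 2 was the highest at 1.15. The mean log2 ratio corresponds to 1.76-fold, and was 0.40 ± 0.69 (SD, n = 3) with spike-in centring. A bound was also computed, after loess and Aquantile normalisation, and is open to dye bias. It sets the brighter channel against the dim signal, or against the array's detection limit where that is higher. Here the bound equals the mean ratio at 1.76-fold, so it is no minimum for each tumour.

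Gimap9, whose function is less well described, had log2 signals of 6.65, 7.17 and 6.67 in the tumours and 6.47, 6.44 and 6.31 in the pool, where it was not well above background on any array. Its log2 ratios were 0.18, 0.73 and 0.36, a mean of 0.42 ± 0.28 (SD, n = 3), or 1.34-fold, and it was not called. With spike-in centring its direction turned, at -0.26.

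Gimap7, a member that stimulates GTP hydrolysis by other family members, was well above background in red on 1 of 3 arrays, that of tumour 2, and in green on 0. Its scanner signals before background correction were 39.8, 91.9 and 45.3 in the tumours over local backgrounds of 31 to 33. In the pool they were 38.6, 41.4 and 41.5 over local backgrounds of 23 to 27. With signals this close to the background in tumours 1 and 3, no fold is given, and the sign of its mean log2 ratio turned with the scaling, from 0.22 to -0.96 with spike-in centring.

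**Figure D1:**
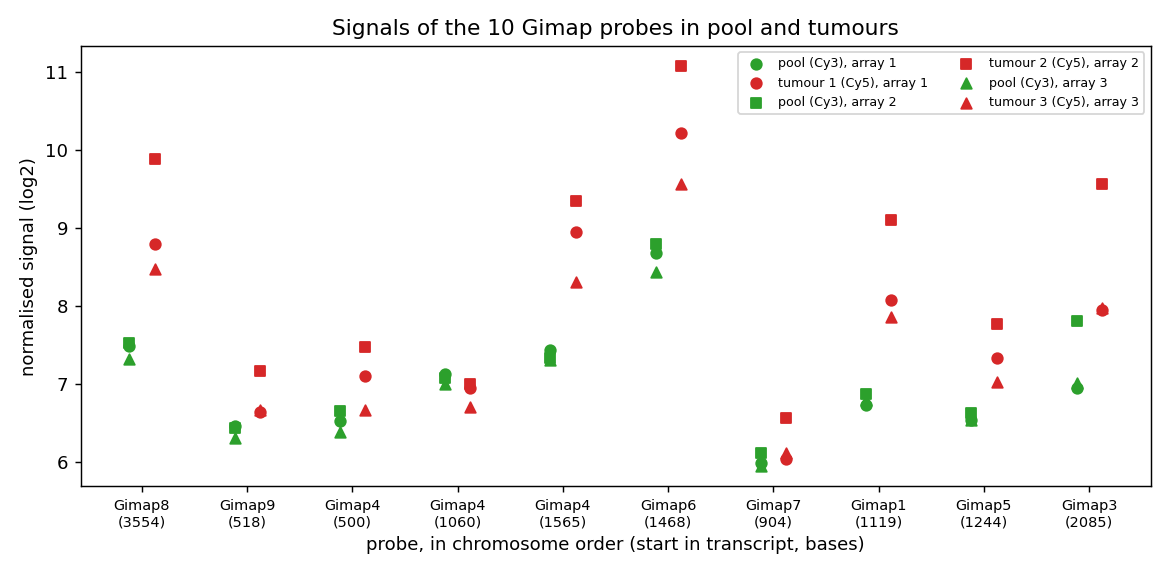
Normalised log2 signals of the 10 Gimap probes on each of 3 arrays, with the pool (Cy3, green) beside the tumour (Cy5, red) and the array given by the symbol. Tumour 2 (red squares) was the highest tumour at every probe, and the pool values spread most at Gimap3, where array 2 had 7.80 against 6.95 and 7.01, with SDs of 0.05 to 0.18 at the other 9 probes. Levels of different probes are not comparable.

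Gimap4, which promotes the death of T cells after activation, was measured by 3 probes that gave 3 different ratios. The probe at base 1565 (chr6:48641817-48641876) is the brightest and stands for the gene. Its log2 signals were 8.94, 9.34 and 8.31 in the tumours and 7.44, 7.33 and 7.31 in the pool, with log2 ratios of 1.50, 2.01 and 1.00 and a mean of 1.51 ± 0.50 (SD, n = 3), or 2.84-fold. All tumour values lay above all pool values.

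The Gimap4 probe at base 1060 (chr6:48641312-48641371) passed the background limit in both channels of every array and went the other way. Its log2 signals were 6.95, 7.00 and 6.71 in the tumours and 7.13, 7.08 and 7.00 in the pool. Its log2 ratios were -0.18, -0.08 and -0.29, a mean of -0.18 ± 0.11 (SD, n = 3). The sign was the same on all arrays, but turned to 0.25 ± 0.20 (SD, n = 3) with median centring. It was the only one of the 10 probes with ratios below 0 on every array under the main processing.

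The Gimap4 probe at base 500 (chr6:48640752-48640811) was not well above background in the pool on any array and had log2 ratios of 0.58, 0.82 and 0.28, a mean of 0.56 ± 0.27 (SD, n = 3). With Agilent's processed signals it had 2.64 ± 0.73 (SD, n = 3), above the 2.02 ± 0.65 (SD, n = 3) of the probe at base 1565, while the probe between them had -0.57 ± 0.26 (SD, n = 3). The order of the outer probes thus depended on the processing, while the middle probe had the lowest ratio of the set either way. With the median of its probes, Gimap4 had 0.56 and was not called. Which transcripts each probe detects was not tested.

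**Figure D2:**
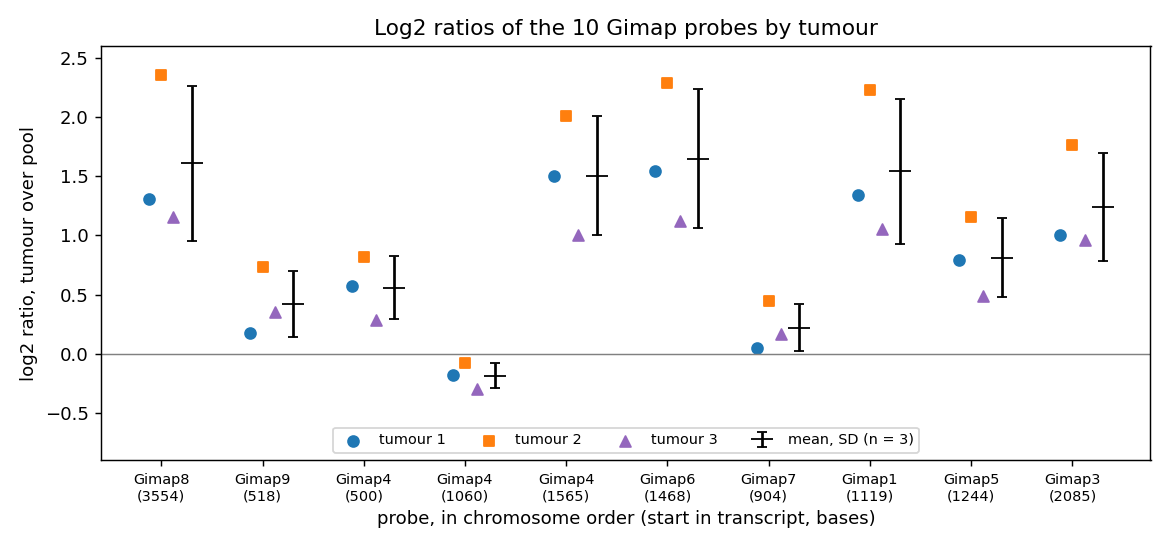
Log2 ratio of tumour over pool at each Gimap probe, by tumour, with the mean and SD (n = 3) in black. Tumour 2 had the highest ratio at all 10 probes, and the Gimap4 probe at base 1060 was the only one below 0 in all tumours.

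How far apart the members lay depended on how dim signals were handled. The main processing adds an offset of 50 to the signals, which pulls the ratios of dim probes towards 0. The 7 representing probes then ran from 0.42 for Gimap9 to 1.65 for Gimap6, and Gimap9 and Gimap5, the members not well above background in the pool, had the lowest ratios. Neighbours in the order from Gimap4 to Gimap6 differed by less than the SD of either gene. With an offset of 0 they ran from 1.14 for Gimap9 to 2.58 for Gimap1. With Agilent's processed signals the same probes ran from 1.76 for Gimap3 to 2.55 for Gimap1, with Gimap9 at 2.35 ± 0.97 and Gimap5 at 1.88 ± 0.68 (SD, n = 3), and 7 of 7 were called higher. The difference between neighbours in that order was smaller than the SD of either gene. Gimap6 moved least of the 10 probes, from 1.65 to 1.80. The authors' deposited values, which are the same ratios on the log2 scale, were filled for Gimap1, Gimap3, Gimap4, Gimap6 and Gimap8. They were blank on all arrays for Gimap5, Gimap7 and Gimap9, and for the Gimap4 probe at base 500.

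**Figure D3:**
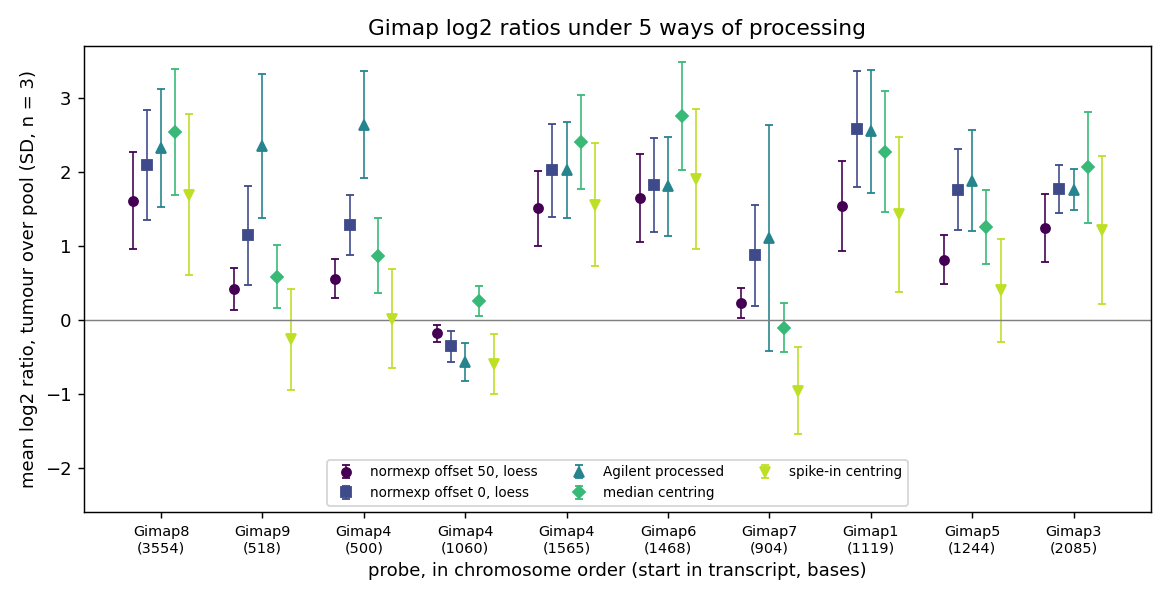
Mean log2 ratio (SD, n = 3) of each Gimap probe under 5 ways of processing. Gimap6 kept a similar value with an offset of 50 (1.65), an offset of 0 (1.82) and Agilent's processed signals (1.80), and 2.75 with median centring, whereas the dim Gimap9 ranged from -0.26 with spike-in centring to 2.35 with processed signals.

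The 3 tumours did not carry the family at the same level. Tumour 2 had the highest ratio for 7 of the 7 genes kept and for 10 of the 10 probes, and tumour 3 the lowest for 8 of the 10. Over all genes tested, tumour 2 had the highest ratio for 30.4%. The median ratio of the 7 genes was 1.31, 2.01 and 1.00 in tumours 1, 2 and 3, and the corresponding medians of all genes were 0.04, 0.04 and 0.04. Gimap genes were highest in tumour 2 in 7 of 7 under an offset of 0, Agilent's processed signals, median centring, spike-in centring and centring on the tested genes as well. Spike-in centring gave tumour 2 the highest ratio for 74.7% of all genes, and median centring for 41.3%. With 1 array per tumour, the difference between tumours has no replicate check.

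Gene lists of immune and vascular cells, chosen with earlier results of these data known, are given beside the family as ratios in whole-tissue RNA. Over all genes tested, 9.33% were called higher and 9.68% lower, and each count of calls below is to be set beside these shares. Of 13 kept B cell genes, 13 had their highest ratio in tumour 2, with medians of 0.94, 1.87 and 0.85 in tumours 1, 2 and 3. The B cell receptor gene Cd79b had ratios of 3.11, 4.71 and 2.83, and the surface gene Cd72 had 1.82, 2.36 and 1.73. The list had 8 of 13 genes called higher and a median of 1.12. Its mean ratios ran from 0.12 to 3.55, and 2 further genes were not kept.

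Of 15 kept T cell genes, 10 were highest in tumour 2, with medians of 0.36, 0.95 and 0.49. Of the 15, 5 were called higher and 0 lower, with a median of 0.80. The kinase gene Lck had ratios of 1.37, 2.25 and 2.09, and Zap70 had 1.37, 1.26 and 1.18. With median or spike-in centring, 15 of 15 were highest in tumour 2, and 13 of 13 B cell genes. These settings also put tumour 2 highest for 41.3% and 74.7% of all genes. The mean ratios of the 15 genes ran from -0.65 to 1.90, and 7 further genes of the list were not kept by the filter on dim probes. Of 5 kept NK cell genes, 1 was highest in tumour 2 and 0 were called.

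Genes of naive and recirculating lymphocytes, in which Gimap genes are typically abundant, were highest in tumour 2 for 9 of 12, and 4 were called higher. Ccr7, which guides cells to lymphoid tissue, had ratios of 1.25, 3.58 and 1.68. Of the 12, 2 were highest in tumour 1, among them S1pr1 with 1.89, 1.80 and 1.02. The mean ratios of this list ran from -0.22 to 2.39, with a median of 0.81. Of 12 pan-leukocyte genes, 10 were highest in tumour 2 and 10 were called higher, with a median of 1.73. Among them the lysosomal membrane gene Laptm5 had 2.10, 2.47 and 2.10, and Rac2, a GTPase of blood cells, had 2.06, 2.33 and 1.22.

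Endothelial, neutrophil and macrophage genes were also called higher, in 6 of 20, 8 of 12 and 14 of 15, against 9.33% of all genes. Their medians were 0.87, 2.58 and 2.51, and 0 were called lower. Of 20 endothelial genes, 18 had their highest ratio in tumour 1 and 1 in tumour 2, with medians of 1.22, 0.91 and 0.36. The clotting protein gene Vwf had 3.21, 2.89 and 2.29, and the junction gene Cldn5 had 3.62, 2.00 and 1.84. The mean ratios of the 20 genes ran from -0.76 for Kdr to 2.79 for Vwf, and 14 were not called. Plvap was also below 0, at -0.39. With spike-in centring 14 of the 20 were highest in tumour 2, so the order of tumours depends on the scaling for this list. Of 12 neutrophil genes, 12 were highest in tumour 1. Of 15 macrophage genes, 6 were highest in tumour 2 and 7 in tumour 3.

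As levels, the summed normalised signal of the 7 Gimap probes was 2907 in tumour 1, 5417 in tumour 2 and 2141 in tumour 3. In the pool it was 1078 to 1313 on the 3 arrays. Such sums weigh bright probes most. Gimap6 was the brightest of the 7, with mean log2 signals of 10.28 in the tumours and 8.64 in the pool. The B cell list summed to 6601 to 14632 in the tumours and 2421 to 2822 in the pool. The T cell list summed to 3301 to 4805 and 2504 to 2579, and the endothelial list to 16222 to 32971 and 13466 to 13760. The tumours were above the pool for each of these lists. The NK cell list summed to 781 to 1268 in the tumours and 756 to 853 in the pool. The sum of the plasma cell list lay below the pool, at 15587 to 22194 against 23939 to 27619. Its brightest gene was Xbp1, with a mean log2 signal of 14.38 in the pool. Of its 7 kept genes, 2 were called higher (Jchain at 2.04, Mzb1 at 2.03) and 2 lower (Derl3 at -2.19, Xbp1 at -1.12). The median log2 ratio of the list was above 0, at 0.87. The part of each cell type in the Gimap ratios was not tested.

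**Figure D4:**
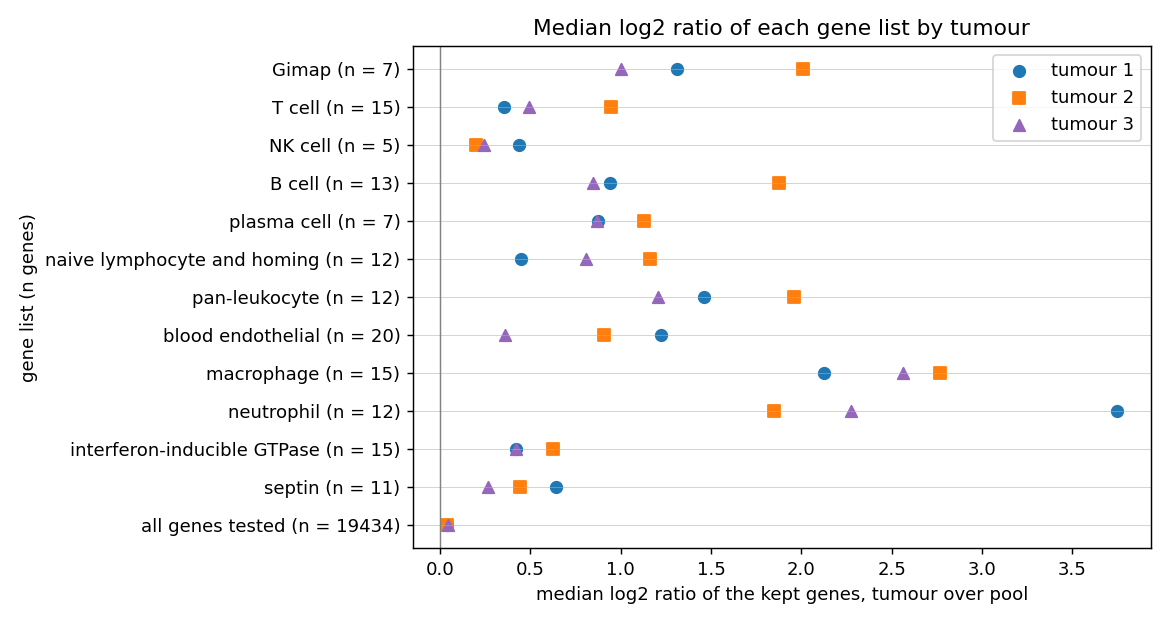
Median log2 ratio of the kept genes of each list in tumours 1, 2 and 3, with the number of genes beside each name. Gimap (1.31, 2.01 and 1.00) and B cell genes (0.94, 1.87 and 0.85) were highest in tumour 2, while endothelial and neutrophil genes were highest in tumour 1.

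Lists of 2 other GTPase families were set beside the Gimap genes, with no test between the families. Over all genes tested, 9.33% were called higher. Interferon-inducible GTPases, which act against intracellular pathogens, had 2 of 15 kept genes called higher and 0 lower, with a median of 0.45. Ifi47 had a mean log2 ratio of 1.85 ± 0.16 (SD, n = 3) and Gbp3 1.12 ± 0.20 (SD, n = 3). Gbp6 had 3.11, 0.25 and 0.47 and was not called. Septins, filament-forming GTPases whose domain resembles that of Gimap proteins, had 2 of 11 called higher, Septin11 at 2.22 ± 0.32 and Septin3 at 1.17 ± 0.33 (SD, n = 3), with a median of 0.39.

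Around the cluster, the 5 protein-coding genes on each side in the RefSeq table of GRCm38 were set beside the Gimap genes. Of these 10 neighbours, 8 were kept, and 2 were called higher and 0 lower, against 9.33% and 9.68% of all genes. Of the 8 kept, 2 had their highest ratio in tumour 2, against 30.4% of all genes. On the Gimap8 side, Lrrc61 (-0.41 ± 0.07), Rarres2 (-0.44 ± 0.95) and Repin1 (-0.48 ± 0.16) had ratios below 0 (SD, n = 3). On the Gimap3 side, the membrane protein genes Tmem176b (0.90 ± 0.22) and Tmem176a (1.34 ± 0.05) and the amine oxidase gene Aoc1 (1.53 ± 0.17) had ratios above 0 (SD, n = 3). Tmem176a had 1.30, 1.39 and 1.33 in tumours 1, 2 and 3, a spread far below that of the Gimap genes. Gm7932 (0.30) and Doxl1 (0.09) were not called.

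**Figure D5:**
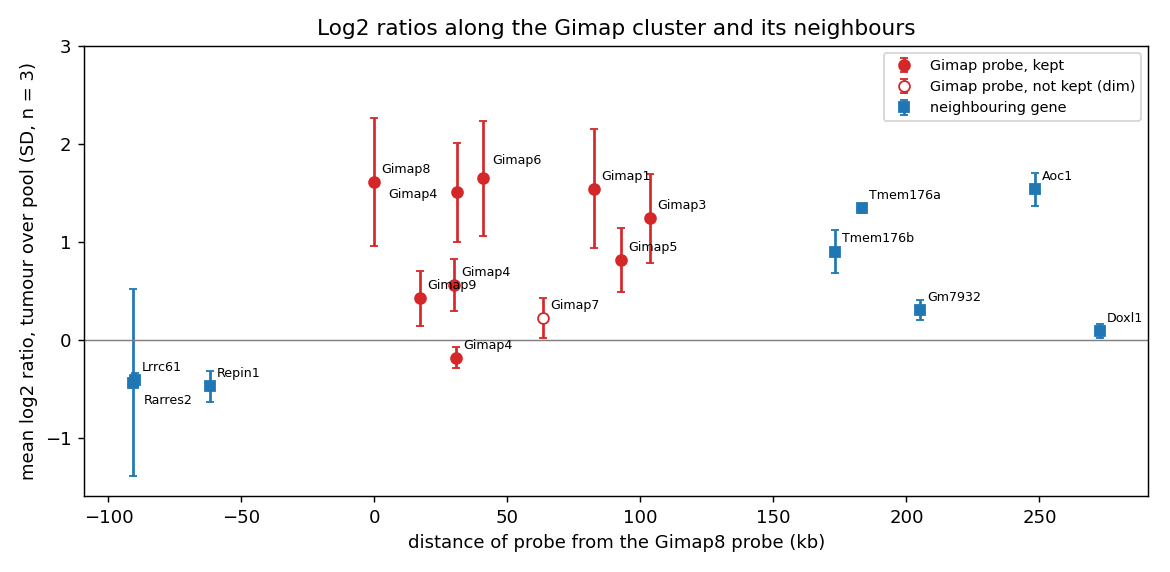
Mean log2 ratio (SD, n = 3) against the distance of each probe from the Gimap8 probe in kb, with Gimap probes in red and neighbouring genes in blue. Neighbours on the left lay below 0 and those on the right between 0.09 and 1.53. The Gimap probes had SDs from 0.11 to 0.65, and the neighbour Rarres2 had the widest at 0.95.

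The 6 genes closest to the median Gimap profile were Postn, Pik3cd, Arhgap4, Arhgap30, Pkn3 and Cd99l2, chosen among 13881 named protein-coding genes by the root mean square distance of the log2 ratios over 3 arrays. The matrix protein gene Postn had 1.35, 2.09 and 0.98, at a distance of 0.05, and the lipid kinase gene Pik3cd had 1.30, 1.98 and 1.12, at 0.07. In all 34 genes lay within 0.2 of the profile. Postn is typically made by fibroblasts and Pik3cd by leukocytes.

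Promoters were examined because the members varied together between tumours. RefSeq promoter windows of GRCm38.p6 were found for all 8 genes, 9 windows in all since Gimap8 has 2 starts, and the 250 bases before each start were searched on both strands. The ETS core GGAAGT was in 2 of 9 windows (Gimap5 and Gimap6), against 19.7% of 32851 windows of all genes. The RUNX motif TGTGGT was in 3 of 9 (Gimap1, Gimap4 and Gimap7), against 14.0%. The KLF motif CACCC was in 6 of 9, in 5 of the 8 genes, against 52.0% of all windows. The 2 Gimap8 windows overlap and share a CACCC match, so they are not separate. The TATA box TATAAA was in 1 of 9, that of Gimap6, against 12.4%. No motif was present in all members. The windows of Gimap6, which had the largest ratio, Gimap5, whose window held the most matches, and Gimap1 are printed 5′ to 3′ with the matches in capitals.
Gimap6, chr6:48708245-48708494 (-): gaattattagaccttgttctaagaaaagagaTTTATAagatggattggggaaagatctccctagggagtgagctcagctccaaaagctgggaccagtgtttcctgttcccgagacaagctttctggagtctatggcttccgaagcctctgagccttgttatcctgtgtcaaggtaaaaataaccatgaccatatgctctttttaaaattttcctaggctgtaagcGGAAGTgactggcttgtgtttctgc
Gimap5, chr6:48745947-48746196 (+): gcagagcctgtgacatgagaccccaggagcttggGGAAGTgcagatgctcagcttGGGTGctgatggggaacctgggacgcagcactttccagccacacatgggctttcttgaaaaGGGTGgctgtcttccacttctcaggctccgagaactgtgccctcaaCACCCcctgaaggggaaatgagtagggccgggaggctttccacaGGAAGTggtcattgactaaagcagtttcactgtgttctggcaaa
Gimap1, chr6:48738797-48739046 (+): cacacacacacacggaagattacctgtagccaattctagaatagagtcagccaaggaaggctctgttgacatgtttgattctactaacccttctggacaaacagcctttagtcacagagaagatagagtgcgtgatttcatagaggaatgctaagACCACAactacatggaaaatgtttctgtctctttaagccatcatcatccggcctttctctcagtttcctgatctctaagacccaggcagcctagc
In Gimap6 the ETS match began 25 bases before the start and the TATA match, on the opposite strand, 219 bases before it. Gimap5 had ETS matches beginning 216 and 44 bases before the start and 3 KLF matches. Gimap1 had its RUNX match 95 bases before the start, on the opposite strand. These matches describe the letters and do not show binding.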

How the data were processed

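The 3 tumours were each hybridised against 1 pool on 2-colour arrays, per the labels. The scanner files hold intensity values, deposited as mean spot signals, local backgrounds and processed signals, and a log10 ratio of red over green, from Agilent Feature Extraction (9.5.3 per the submitters' processing notes, 10.7.3.1 per the file headers). A value table deposited by the authors gives log2 ratios, within 0.01 of the scanner ratio at 99.8% of filled probes on each array.

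Signals were corrected with normexp (offset 50) and normalised by loess within arrays in limma 3.58.1 under R 4.3.3. Control and outlier spots were left out, and 24164 probes passed the filter, a signal well above background in red on each array or in green on each array. A gene was given by its brightest kept probe, named by its accession in RefSeq where matched (26055 probes). Each gene's ratio was set against 0 by lmFit and eBayes, over 19434 genes, two-sided, with Benjamini-Hochberg adjustment, and called at an adjusted p under 0.05 and 2-fold. The test was checked on simulated data. Normalised signals were set between arrays by Aquantile. The labels number the tumours as biological replicates. The members and lists were chosen with earlier results of these data known. The text names all members with every probe. It names some of the 3 list genes with the largest absolute ratio. The neighbouring genes and the 6 genes of closest profile are also named. Alternatives covered background, normalisation, filter, probe summary, left-out replicates and eBayes settings.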

Additional observations from a re-analysis of the deposited data

How the results depend on the processing

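The median Gimap log2 ratio of 1.51 stayed above 0 under every alternative tried, and ranged from 1.20 without replicate 2 to 1.76 without replicate 3 when replicates were left out. It moved by more than the spread between arrays to 2.02 both from the processed signals of Agilent's software and from the authors' deposited values (5 genes filled) and 2.27 with median centring, where the median of all genes was itself 0.77. The Gimap9 ratio turned to -0.26 with spike-in centring, and the cause was not tested. The count of Gimap genes called, 5 of 7, ranged from 4 without replicate 2, and when probes of a gene were summarised by their median, to 7 with an offset of 0 or processed signals. Calls over all genes numbered 3696, and 5743 with an offset of 0, 6817 with processed signals and 8303 with median centring. Each array sets 1 tumour against the same pool, so the fit already compared the channels within arrays, and no further pairing was possible. Dim pool signals limit what Gimap5, Gimap7 and Gimap9 can show.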
